A study of Mus musculus with 6 samples.

Results

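The genes described here are 46 genes of the mouse cell cycle. They were chosen by symbol from what is known of their function, with earlier results of these data known. All 46 have a row among the 46095 in the table of read counts, and 44 had enough reads to be tested; Ccne1 and Ttk did not pass the filter on low counts. Kidney RNA of 6 samples was sequenced, 3 labelled DHT and 3 labelled control, all from mice of C57BL/6 background. DHT is dihydrotestosterone, an androgen that cannot be converted to oestrogen and is given to mice to model polycystic ovary syndrome (PCOS), and the study asked how the kidney is injured there. Both groups carry the strain label PCOS mouse, so the control samples are controls by their treatment label alone. The labels used here do not give the dose, duration, route, age or sex. They also do not call the replicates separate animals, and p-values therefore reflect only how far these samples spread.

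Cells divide in an ordered cycle. D cyclins with Cdk4 and Cdk6, then E cyclins with Cdk2, inactivate the retinoblastoma protein and release E2F factors, which switch on genes for DNA replication. Cyclin A, cyclin B and Cdk1 then drive mitosis, in which the spindle, the kinetochores and a checkpoint part the chromosomes, while the CDK inhibitors hold these kinases back. Most cells of the adult kidney are not dividing, and tubule cells can enter the cycle again after injury.

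Each library held between 15.05 and 19.33 times 1e6 counts, and levels are given per 1e6 counts (CPM) after TMM scaling. The edgeR quasi-likelihood test with Benjamini-Hochberg adjustment called 437 of 15367 genes at an adjusted p of 0.05, or 2.84%, of which 212 were higher in DHT (1.38%) and 225 lower (1.46%). All 12 proximal tubule markers were detected, with a summed level of 22141 to 32043 CPM in DHT samples and 19491 to 27406 CPM in control samples. DHT replicate 2 was the highest of the 6 libraries in summed markers of macrophages, neutrophils, lymphocytes, red blood cells, endothelium and podocytes. Control libraries differed too. Loop of Henle markers summed to 14711 CPM in control replicate 3, against 6722 and 9353 CPM in control replicates 1 and 2. For principal cells these were 964, 471 and 465 CPM. Fat cell markers had 371 counts in control replicate 2 and 36 in control replicate 3. With DHT replicate 2 left out, 1224 genes were called, and the count was 19 when DHT replicate 1 was left out and 0 for DHT replicate 3. It was 7 when control replicate 2 was left out and 89 for control replicate 3.

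None of the 44 cell cycle genes tested passed the threshold, and the highest fold changes were those of genes of mitosis. The 21 tested mitotic and spindle genes had a median log2 fold change of 1.15, DHT over control, and 20 of them were above 0, as were 50.3% of all genes tested. Among the 21, Aurka, Aurkb, Birc5, Bub1, Ccnb1, Cenpe and Plk1 would not have passed the filter by their control counts alone. That these genes were tested thus depended partly on their DHT counts. The median was 0.17 in the 12 replication genes, 0.16 in the 7 tested G1 genes and 0.00 in the 4 inhibitors, against 0.00 in all genes tested. In bulk kidney RNA, more or fewer dividing cells and more or less RNA per cell cannot be told apart. The count was also 0 with limma-voom, which called 2.09% of all genes, while DESeq2 called 5 members, all higher in DHT and all of mitosis: Nusap1, Cdc20, Prc1, Ccnb2 and Mki67. That is 11.4% of the 44 members, against a DESeq2 background of 10.5% called in either direction and 5.51% called higher. With no filter on low counts edgeR called 1 of the 46, Nusap1, with 3.35% of all genes called in either direction and 1.64% higher. At an unadjusted edgeR p under 0.05 there were 14 members higher and 1 lower, where 12.0% of all genes tested were higher and 12.0% lower. The groups did not overlap in 12 members on the higher side, or 27.3% of those tested, and in 1 on the lower side, against 14.8% and 15.0% of all genes tested. Aurka, Birc5 and Cenpe are among the 14, and Ccnb1 and Cenpe among the 12, where they give no support.

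**Figure D1:**
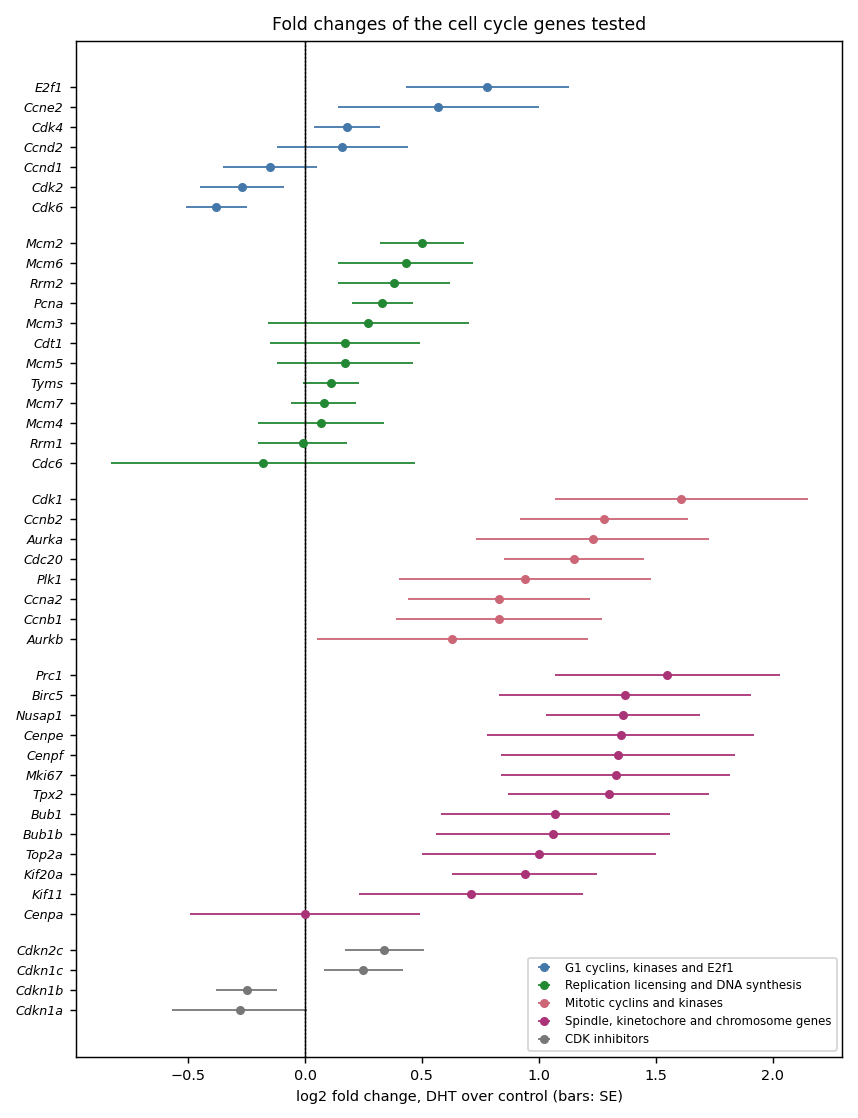
Log2 fold change, DHT over control, of each of the 44 cell cycle genes tested (points, with bars for the SE), grouped by role. The mitotic and spindle genes lie right of 0 except Cenpa, with a median of 1.15, while the other groups straddle or lie near 0.

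Compared per kilobase of exon, the transcripts with the highest mean level over the 6 libraries were those of the G1 regulators Ccnd1 (48.3 CPM per kilobase) and Cdk4 (21.2), the replication clamp Pcna (14.6) and the inhibitors Cdkn1c (12.4) and Cdkn1b (10.1). The mitotic and spindle genes were far lower, between 0.0559 CPM per kilobase for Ttk and 1.45 for Cdc20. Their mean levels before this correction ran to at most 6.40 CPM among those tested, so their values rest on few reads. A log2 fold change above 0 was found in 95.2% of the tested mitotic and spindle genes, against 44.6% of all tested genes with a mean of 0.656 to 6.40 CPM, whose median was -0.09.

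The mitotic cyclins and kinases, with Cdc20, come first. Cdc20, which activates the anaphase-promoting complex to end mitosis, was at 3.64, 4.01 and 3.56 CPM in DHT replicates 1, 2 and 3, against 1.54, 1.35 and 2.13 CPM in control replicates 1, 2 and 3. Every DHT library was above every control, with a log2 fold change of 1.15 ± 0.30 (SE, edgeR adjusted p = 0.0692). Ccnb2, a B cyclin that binds Cdk1, had 3.77, 2.63 and 2.02 CPM in DHT samples and 1.23, 1.30 and 0.940 CPM in control samples. The groups again did not overlap (log2 fold change 1.28 ± 0.36, edgeR adjusted p = 0.0859), and the DHT counts for this gene were 136 in all against 64 in control. Cdk1 itself, the kinase of mitotic entry, was at 2.76, 4.26 and 1.48 CPM in DHT samples, against 1.6, 0.674 and 0.544 CPM in control samples. Its log2 fold change of 1.61 ± 0.54 was the largest among the 44, but DHT replicate 3 lay below control replicate 1 (edgeR adjusted p = 0.122). Ccna2, the A cyclin of S phase and mitosis, had 3.96, 6.01 and 2.97 CPM in DHT samples and 3.44, 1.56 and 2.28 CPM in control samples, with overlap between the groups. Ccnb1, the main B cyclin, did not overlap, at 1.76, 0.877 and 1.07 CPM in DHT samples against 0.492, 0.778 and 0.792 CPM in control samples, but near-identical transcripts of other loci, such as Ccnb1-ps, make its counts uncertain. The mitotic kinases Aurka, Aurkb and Plk1 had log2 fold changes of 1.23, 0.63 and 0.94, each with overlapping groups and 38 to 82 counts per group.

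Among the spindle and chromosome genes the smallest p belonged to Nusap1, which binds and stabilises spindle microtubules. It had 4.84, 3.82 and 3.26 CPM in DHT samples, against 1.97, 1.09 and 1.58 CPM in control samples, with no overlap (log2 fold change 1.36 ± 0.33, edgeR adjusted p = 0.0622). Prc1, which bundles microtubules of the central spindle for cytokinesis, was at 2.89, 5.39 and 1.66 CPM in DHT samples and 1.54, 0.830 and 1.04 CPM in control samples. The lowest DHT library was just above the highest control (log2 fold change 1.55 ± 0.48, edgeR adjusted p = 0.105). Tpx2, an activator of Aurka on the spindle, had 2.45, 4.2 and 1.90 CPM in DHT samples against 1.35, 0.726 and 1.39 CPM in control samples. Cenpe, a kinetochore motor, had 2.45, 2.07 and 2.25 CPM in DHT samples against 1.78, 0.623 and 0.297 CPM in control samples. Neither of these genes overlapped between the groups, and both missed the threshold (edgeR adjusted p = 0.118 and 0.195). Kif20a, a kinesin of cytokinesis, was at 3.46, 2.51 and 2.67 CPM in DHT samples and 1.35, 1.35 and 1.78 CPM in control samples, also with no overlap. Over the 29.3% of its exonic bases that lie opposite exons of Cdc23, reads of Kif20a and Cdc23 cannot be told apart, since strand use in counting is not given.

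The best known proliferation marker, Mki67, which coats mitotic chromosomes, had 7.41, 15.2 and 4.86 CPM in DHT samples, against 5.53, 2.08 and 3.36 CPM in control samples. DHT replicate 2 was the highest library and DHT replicate 3 lay below control replicate 1, and the log2 fold change was 1.33 ± 0.49 (edgeR adjusted p = 0.154). Without DHT replicate 2 that of Mki67 was 0.74. Top2a, the topoisomerase that untangles replicated DNA, followed the same library: it was at 3.77, 12.1 and 3.74 CPM in DHT samples and 4.37, 3.01 and 2.47 CPM in control samples, so that DHT replicates 1 and 3 lay within the control range. Birc5, or survivin, of the chromosomal passenger complex, and Cenpf, of the outer kinetochore, had log2 fold changes of 1.37 and 1.34 with overlapping groups. The checkpoint kinase genes Bub1 and Bub1b and the spindle motor Kif11 had log2 fold changes of 1.07, 1.06 and 0.71. Cenpa, the histone H3 variant of centromeres, was the exception, at 1.89 ± 1.03 CPM in DHT samples and 1.91 ± 0.869 CPM in control samples (SD, n = 3 each). Ttk, the checkpoint kinase also called Mps1, had 21 counts in DHT and 6 in control, too few to be tested.

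**Figure D2:**
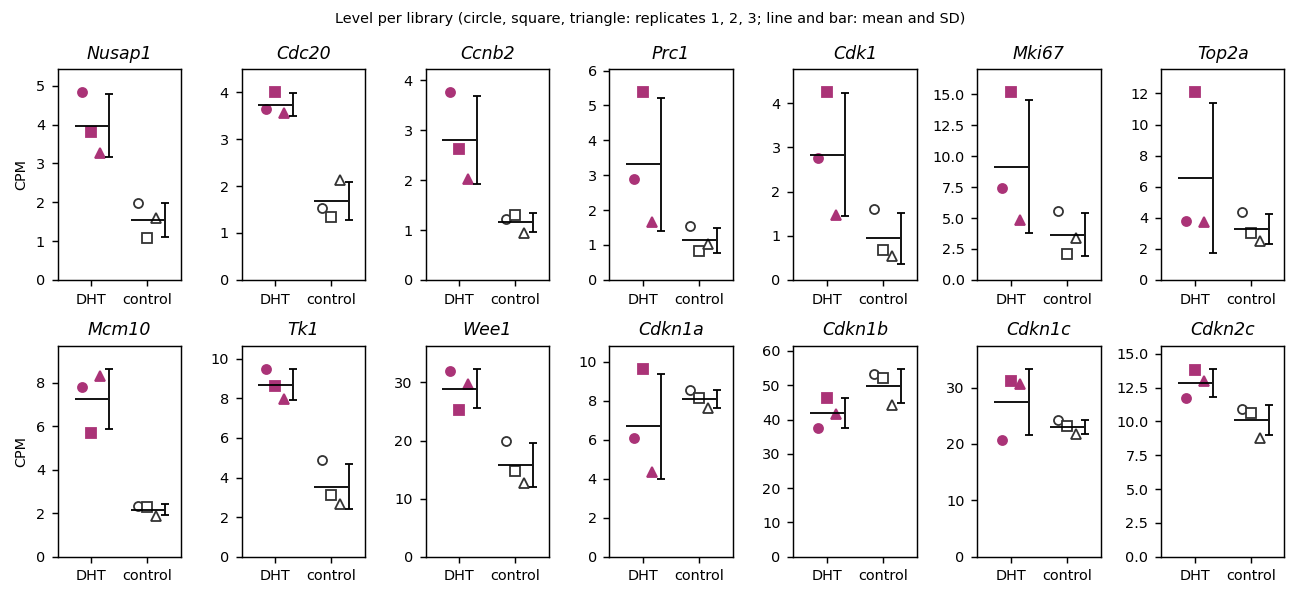
Level in CPM of 14 genes in each library, with DHT left and control right (filled and open symbols; circle, square and triangle for replicates 1, 2 and 3; line and bar for the mean and SD, n = 3 each). Nusap1, Cdc20, Ccnb2, Mcm10, Tk1 and Wee1 part the groups, Mki67 and Top2a peak in DHT replicate 2, and Cdkn1a, Cdkn1b and Cdkn1c overlap.

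Many promoters of mitotic genes hold a CHR element (TTTGAA or TTCGAA) with CCAAT boxes upstream, through which the DREAM complex holds them down in resting cells and MuvB with B-Myb or FoxM1 raises them in dividing ones, whereas replication genes more often hold E2F sites (here the string TTCCCGC, its variants TTCGCGC and also TTGCCGC, and the string TTGGCGC). RefSeq windows of 300 bases, 250 before and 50 after a gene's start, were found for 37 of the 46 genes and searched on both strands. A CHR element and a CCAAT box stood in the same window in 14 of 18 mitotic and spindle genes, or 77.8%, in 2 of 11 replication genes, and in 0 of 5 G1 genes and 0 of 3 inhibitors. The share in all 27025 genes with a window was 8.61%. An E2F site was found in 8 of 11 replication genes, or 72.7%, and in 3 of 18 mitotic and spindle genes, against 10.9% of all genes. Birc5, Ccnb1, Cenpe and Nusap1 were the mitotic and spindle genes with a window that lacked the pair. The 15 tested members with the pair had a median log2 fold change of 1.07 and the 20 without it 0.22, a split that largely follows the roles. Outside the members the pair went with no such difference: the median was -0.02 in 744 other tested genes with it and 0.00 in 10301 without.

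**Figure D3:**
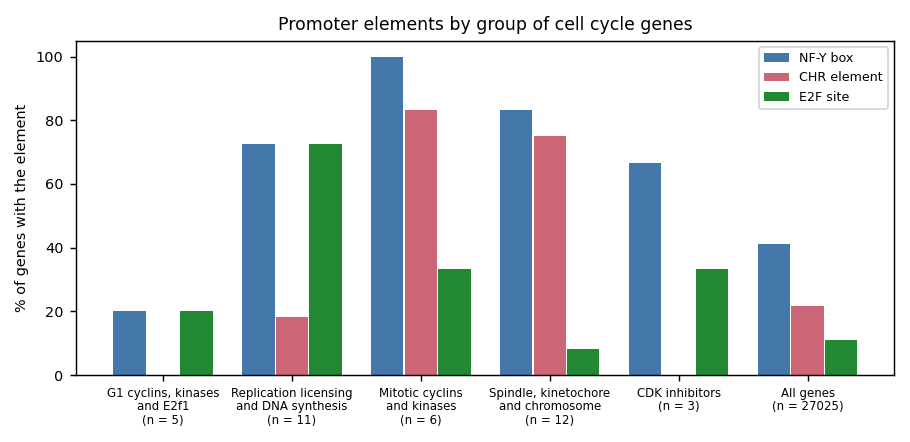
Share of genes, in percent, whose promoter window holds an NF-Y box (CCAAT), a CHR element or an E2F site, for each group of cell cycle genes and for all 27025 genes with a window (n under each group). CHR elements stand out in the mitotic and spindle groups (83.3% and 75.0%) and E2F sites in the replication group (72.7%).

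The windows below show this layout in the 3 mitotic genes with the smallest p that have the pair, and in the replication gene Mcm3 for contrast. Capitals mark CCAAT boxes (ATTGG on the other strand) and CHR elements in the first 3, and CCAAT boxes and E2F sites in Mcm3, where the last E2F matches lie on both strands and overlap. All are RefSeq sequences on GRCm38.p6, 5′ to 3′ on the gene's strand.
Cdc20, chr4:118437294-118437593, minus strand: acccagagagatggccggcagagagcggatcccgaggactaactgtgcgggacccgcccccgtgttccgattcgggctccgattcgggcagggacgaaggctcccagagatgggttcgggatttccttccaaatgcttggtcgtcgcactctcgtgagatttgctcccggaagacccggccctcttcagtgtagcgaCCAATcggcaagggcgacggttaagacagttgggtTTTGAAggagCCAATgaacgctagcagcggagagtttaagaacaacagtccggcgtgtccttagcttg
Ccnb2, chr9:70421505-70421804, minus strand: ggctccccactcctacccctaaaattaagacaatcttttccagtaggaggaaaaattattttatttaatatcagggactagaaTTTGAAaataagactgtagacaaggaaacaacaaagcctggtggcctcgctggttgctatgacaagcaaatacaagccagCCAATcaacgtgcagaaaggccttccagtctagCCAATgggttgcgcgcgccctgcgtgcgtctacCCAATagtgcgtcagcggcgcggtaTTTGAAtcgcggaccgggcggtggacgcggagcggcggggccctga
Prc1, chr7:80294201-80294500, plus strand: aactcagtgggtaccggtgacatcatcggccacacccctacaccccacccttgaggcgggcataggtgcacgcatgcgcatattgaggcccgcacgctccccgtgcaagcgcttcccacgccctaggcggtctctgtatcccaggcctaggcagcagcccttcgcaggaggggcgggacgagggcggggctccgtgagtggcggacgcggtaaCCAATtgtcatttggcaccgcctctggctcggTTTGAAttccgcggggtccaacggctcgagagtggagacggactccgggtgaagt
Mcm3, chr1:20820263-20820562, minus strand: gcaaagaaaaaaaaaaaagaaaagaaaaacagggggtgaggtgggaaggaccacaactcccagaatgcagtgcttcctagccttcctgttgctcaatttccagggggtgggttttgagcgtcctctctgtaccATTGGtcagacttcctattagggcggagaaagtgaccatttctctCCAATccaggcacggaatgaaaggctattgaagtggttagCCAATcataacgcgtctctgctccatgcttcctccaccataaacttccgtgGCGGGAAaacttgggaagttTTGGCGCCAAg
In Cdc20 and Prc1 the CHR element is close before the start of the gene, with a CCAAT box upstream of it, and Ccnb2 has 3 CCAAT boxes before its nearer CHR element. Mcm3 has 3 CCAAT boxes and no CHR element. A match is a string of letters and does not show that a factor was bound in these samples.

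The genes of replication licensing and DNA synthesis had fold changes closer to 0. Of 12 tested, 10 had a log2 fold change above 0, the range was -0.18 to 0.50, and 2 did not overlap. Mcm2, a subunit of the helicase that is loaded at origins, was at 13.6, 15.5 and 17.1 CPM in DHT samples, against 13.1, 9.39 and 10.2 CPM in control samples (log2 fold change 0.50 ± 0.18, edgeR adjusted p = 0.14). Pcna, the sliding clamp of DNA polymerases, was at 38.3, 45.2 and 33.5 CPM in DHT samples and 32, 29.7 and 31.5 CPM in control samples (0.33 ± 0.13, adjusted p = 0.176). In both genes all DHT libraries were above all controls, by a narrow margin, and a near-identical Pcna pseudogene makes the second uncertain. Mcm6, another helicase subunit, had 30.5, 23.0 and 24.8 CPM in DHT samples and 11.5, 19.2 and 27.5 CPM in control samples, with a wide spread among the controls. Tyms, which makes thymidylate, was at 19.7, 20.9 and 18.7 CPM in DHT samples and 17.5, 18.7 and 18.6 CPM in control samples, with overlap. The other helicase subunits Mcm3, Mcm4, Mcm5 and Mcm7 had log2 fold changes of 0.27, 0.07, 0.17 and 0.08. For Mcm3, Mcm4 and Mcm5 the value turned below 0 without DHT replicate 2, at -0.35, -0.28 and -0.11, and for Mcm4 and Mcm7 it did so with no scaling beyond total counts. The licensing factors Cdt1 and Cdc6 were at 0.17 and -0.18, and the ribonucleotide reductase subunits Rrm1 and Rrm2 at -0.01 and 0.38. Of these 12 genes, 9 had their highest DHT level in DHT replicate 2.

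Among the 7 tested G1 genes DHT and control parted for E2f1, by a narrow margin, and for Cdk6, in opposite directions. E2f1, the transcription factor that switches on replication genes, was at 3.52, 3.51 and 5.75 CPM in DHT samples, against 3.26, 1.71 and 2.47 CPM in control samples (log2 fold change 0.78 ± 0.35, edgeR adjusted p = 0.21). Cdk6, a partner of D cyclins, was at 25.9, 21.4 and 21.0 CPM in DHT samples, against 28.3, 30.0 and 30.7 CPM in control samples (-0.38 ± 0.13, adjusted p = 0.119). It was the only member with all DHT libraries below all controls. Its close relative Cdk4 had 62.0, 76.2 and 80.8 CPM in DHT samples and 69.4, 57.5 and 66.7 CPM in control samples, and Cdk2 had 13.7, 18.4 and 13.2 CPM in DHT samples and 20.8, 17.4 and 16.4 CPM in control samples. Both overlapped between the groups. Ccnd1, the D cyclin with the highest level, had 190.1, 250.2 and 205 CPM in DHT samples and 232, 184 and 302 CPM in control samples (log2 fold change -0.15 ± 0.20, edgeR adjusted p = 0.669), and without control replicate 3 that of Ccnd1 was 0.04. Ccnd2 had 28.3 CPM in DHT replicate 2 against 15.6 and 13.4 CPM in DHT replicates 1 and 3 and 15.5 to 19.9 CPM in control samples. Of the E cyclins, Ccne2 had a log2 fold change of 0.57 with overlapping groups. Ccne1 had 10, 6 and 24 counts in the 3 DHT samples and 2, 2 and 4 in the control samples. It was left out by the filter in the fit of all 6 libraries. Where DHT replicate 2 was left out it passed the filter only through its DHT counts, so that its call there (edgeR adjusted p = 0.0417, the 1 member called, where 7.76% of all genes were called and 4.72% were higher) gives no support. In the 4 other fits that held Ccne1 it was not called (edgeR adjusted p = 0.0842 with no filter and 0.151 to 0.233 with 1 control library left out).

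Of the CDK inhibitors, 2 were above 0 and 2 below, and 0 passed. Cdkn1a, or p21, which p53 induces, was at 6.09, 9.64 and 4.33 CPM in DHT samples, against 8.55, 8.14 and 7.62 CPM in control samples. Its DHT libraries lay on both sides of the controls (log2 fold change -0.28 ± 0.29, edgeR adjusted p = 0.595). Cdkn1b, or p27, which keeps cells out of the cycle, was at 37.6, 46.4 and 41.6 CPM in DHT samples, against 53.2, 52.2 and 44.2 CPM in control samples (-0.25 ± 0.13, adjusted p = 0.263). Cdkn1c, or p57, known in the kidney from podocytes, was at 20.7, 31.1 and 30.6 CPM in DHT samples and 24.2, 23.2 and 21.7 CPM in control samples, and Cdkn2c, or p18, an inhibitor of Cdk4 and Cdk6, at 11.7, 13.8 and 13 CPM in DHT samples and 10.9, 10.6 and 8.81 CPM in control samples. Cdkn2c was the inhibitor whose groups did not overlap (log2 fold change 0.34 ± 0.17, edgeR adjusted p = 0.254). All 4 inhibitors had their highest DHT level in DHT replicate 2. Exonic bases of Cdkn1c are opposite an antisense gene over 30.7% of their length.

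Summed over their members, the mitotic cyclins and kinases came to 21.7, 22.3 and 14.1 CPM in DHT samples, against 10.8, 6.74 and 9.99 CPM in control samples. The spindle, kinetochore and chromosome genes came to 40.0, 63.4 and 28.7 CPM in DHT samples, against 28.2, 14.3 and 18.2 CPM in control samples. In both sums every DHT library was above every control, narrowly in the second. Per total count the second sum overlapped: DHT replicate 3 had 484 counts of 18.62 times 1e6, and control replicate 1 had 459 of 15.99. In the replication genes too every DHT library was above every control. They came to 156, 187 and 159 CPM in DHT samples, against 142, 137 and 147 CPM in control samples. Their median log2 shifts from the control mean overlapped, at -0.14, 0.52 and 0.07 in DHT samples and 0.11, -0.06 and -0.01 in control samples. Per total count the replication sum overlapped as well: DHT replicate 1 had 2488 of 17.12 times 1e6, and control replicate 3 had 2966 of 18.44. The inhibitors came to 76.1, 101 and 89.5 CPM in DHT samples, against 96.9, 94.3 and 82.4 CPM in control samples, with the groups mixed. These sums are descriptions without a test, since the members were chosen with earlier results known. In none of the 22 mitotic and spindle genes was DHT replicate 3 the highest of the DHT libraries; replicate 2 was in 13 and replicate 1 in 9. Control replicate 2 was the lowest control in 15 of the 22.

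**Figure D4:**
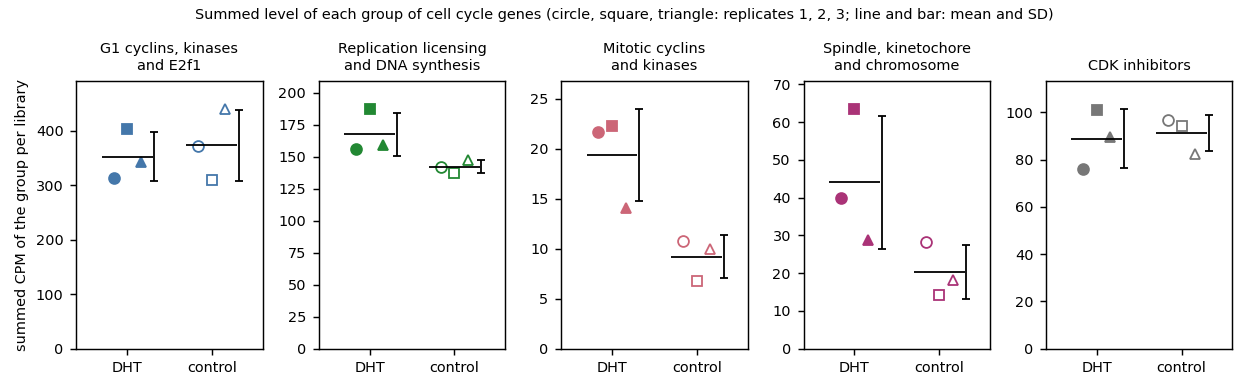
Summed CPM of each group of cell cycle genes in each library, DHT left and control right (filled and open; circle, square and triangle for replicates 1, 2 and 3; line and bar for the mean and SD, n = 3 each). The mitotic sums were 19.4 ± 4.57 CPM in DHT samples and 9.19 ± 2.16 CPM in control samples. After TMM scaling the spindle and replication sums also part the groups, while the G1 and inhibitor sums overlap. Per total count the spindle and replication sums overlap.

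Markers of several immune cells were highest in the library where many of these genes peaked, and the summed neutrophil markers were higher in all 3 DHT libraries. The 6 neutrophil markers summed to 6.53, 11.1 and 6.94 CPM in DHT samples, against 5.04, 3.84 and 3.31 CPM in control samples. Every DHT library was above every control in this sum, as in the scaled sums of the mitotic, spindle and replication genes. Of the 4 markers tested, 0 were called. Of the 6, S100a9 had 29, 36 and 32 counts in DHT samples and 17, 14 and 1 in control samples. Cxcr2, with 30 counts in DHT samples and 11 in control samples, was not tested. Nor was Retnlg, which was at 0 in all controls and had 17 counts in DHT samples. The other markers, S100a8, Csf3r and Mmp9, overlapped between the groups. S100a8 had 4, 15 and 22 counts in DHT samples and 15, 9 and 1 in control samples. The 12 macrophage and monocyte markers summed to 118, 428 and 261 CPM in DHT replicates 1, 2 and 3, against 119.8, 175 and 253 CPM in control replicates 1, 2 and 3, with 0 called and none at 0. The 12 lymphocyte markers summed to 24.1, 62.1 and 23.0 CPM in DHT samples and 23.1, 26.2 and 29.8 CPM in control samples. The 8 endothelial markers summed to 465, 822 and 448 CPM in DHT samples and 482, 502 and 617 CPM in control samples. DHT replicate 2 was thus high in these 3 lists and DHT replicate 1 was not, unlike in the neutrophil list. In DHT replicate 1 the macrophage sum (118 CPM) was close to that of control replicate 1 (119.8 CPM), while the neutrophil sum (6.53 CPM) was above every control. The mitotic and spindle genes summed to 61.7 CPM in DHT replicate 1, against 39.0, 21.0 and 28.2 CPM in control replicates 1, 2 and 3. The part of any of these cells in the fold changes was not tested. Without DHT replicate 2 the 21 tested mitotic and spindle genes had a median log2 fold change of 1.0, with 20 above 0. The replication genes then had a median of 0.03, with 6 of 12 above 0.

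**Figure D5:**
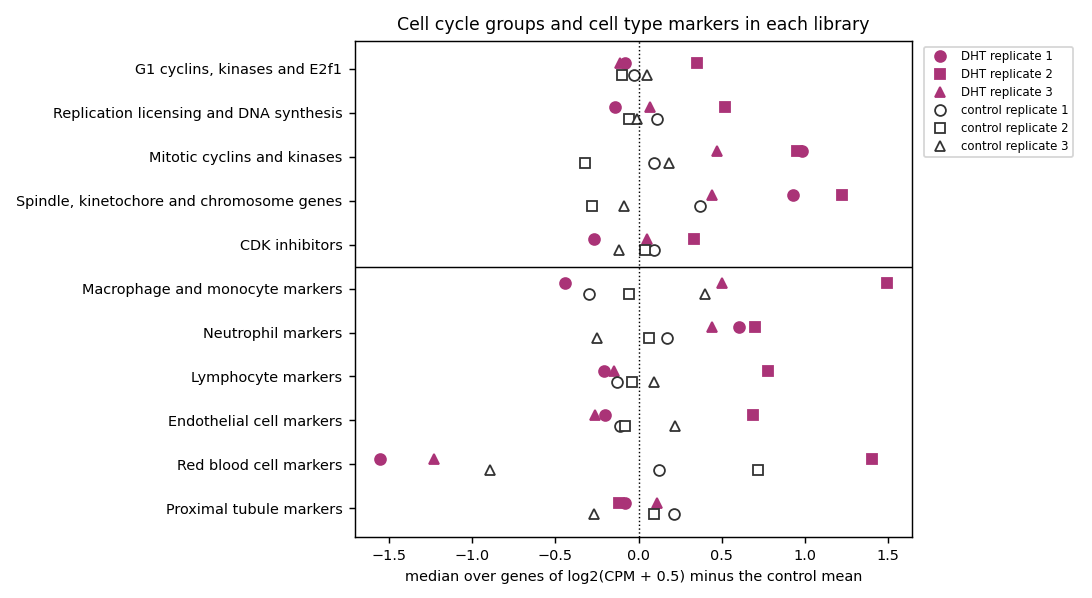
Median over the genes of each group of log2(CPM + 0.5) minus the control mean, for the cell cycle groups (above the line) and cell type markers (below it), in each DHT library (filled) and control library (open). Mitotic and spindle medians lie above all controls in all 3 DHT libraries, and so do neutrophil markers (0.60, 0.70 and 0.44 in DHT samples, at most 0.17 in control samples), while macrophage markers reach 1.49 in DHT replicate 2 and -0.44 in DHT replicate 1.

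Other genes of the pathway, listed by function, number 126, of which 116 were tested. Of these, 3 rose and 0 fell, or 2.59%, which is near the 2.84% of all genes. Mcm10, a replication fork protein that helps activate the helicase, was at 7.79, 5.70 and 8.31 CPM in DHT samples, against 2.34, 2.28 and 1.88 CPM in control samples (log2 fold change 1.74 ± 0.26, edgeR adjusted p = 0.0224). Tk1, the S phase thymidine kinase, was at 9.49, 8.64 and 7.95 CPM in DHT samples, against 4.86, 3.11 and 2.67 CPM in control samples (1.30 ± 0.27, adjusted p = 0.0453). Wee1, the kinase that restrains Cdk1 until replication is done, was at 31.9, 25.2 and 29.7 CPM in DHT samples, against 20, 14.8 and 12.7 CPM in control samples (0.87 ± 0.19, adjusted p = 0.0485). All 3 parted the groups. The gap was wide for Mcm10 and Tk1 and narrower for Wee1, at 25.2 CPM in the lowest DHT library and 20 CPM in the highest control. All 3 lost the call without DHT replicate 1 or 3 or without control replicate 2 or 3, where their adjusted p lay between 0.0649 and 0.164, and all 3 kept it without DHT replicate 2. With limma-voom and with a non-robust fit Wee1 had an adjusted p of 0.0502.

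Among the 30 further mitotic genes tested, 26 were above 0 and the median log2 fold change was 0.86, with 0 called and 14 higher and 2 lower at an unadjusted p under 0.05. In 15 of them all DHT libraries were above all controls, which held for 14.8% of all genes tested. Kif2c, a kinesin that takes microtubules apart at the centromere, had the smallest p there, at 1.63, 1.32 and 0.890 CPM in DHT samples and 0.430, 0.311 and 0.247 CPM in control samples (log2 fold change 1.95 ± 0.46, edgeR adjusted p = 0.0589). It had 7, 6 and 5 counts in control samples and passed the filter only through its DHT counts. So did Kif18b, with 5, 3 and 6 counts in control samples, and Dlgap5, with 9, 2 and 5. Ckap2, Kif22 and Nuf2 had 8, 9 and 8 counts in control replicate 2, so their control counts alone would not have passed either. All these genes are among the 15 above, and all but Nuf2 among the 14, where they give no support. The p of Kif2c and its DESeq2 call give none either. DESeq2 called Kif2c and Hmmr, a spindle assembly factor, or 6.67% of these 30 genes. It called 6 of the 116 pathway genes (5.17%), Ccnd3 among them, where it called 10.5% of all genes, 5.51% higher. Ccnd3 was at 102, 107 and 140.1 CPM in DHT samples, against 78.0, 78.4 and 80.4 CPM in control samples (log2 fold change 0.56 ± 0.14, edgeR adjusted p = 0.0663). Mybl2, or B-Myb, a transcription factor of mitotic genes, had all DHT libraries below all controls, at 1.26, 1.5 and 0.831 CPM in DHT samples and 1.91, 1.87 and 2.72 CPM in control samples (-0.86 ± 0.37, adjusted p = 0.202). Cdkn3, a phosphatase that acts on CDKs, had 40 counts in DHT and 3 in control and was left out by the filter. The 14 genes of the ubiquitin ligases APC/C and SCF ranged from -0.19 to 0.30 on the log2 scale and the 16 p53 and growth arrest genes from -0.35 to 0.76, with 0 called in either. The smallest p there was that of Anapc11, an APC/C subunit, at 26.3, 26.9 and 32.8 CPM in DHT samples and 22.0, 21.4 and 26.6 CPM in control samples, and that of Ccng2, linked to cell cycle exit, at 21.5, 22.8 and 22.4 CPM in DHT samples and 25.2, 26 and 29.4 CPM in control samples. The first overlapped between the groups and the second did not. Of the inhibitors beyond the members, Cdkn2b was at 0.503, 0.564 and 0.653 CPM in DHT samples and 0.246, 0.571 and 2.62 CPM in control samples. Lin52, a subunit of DREAM, was at 26.7, 21.9 and 24.6 CPM in DHT samples and 18.5, 20.9 and 19.5 CPM in control samples, with no overlap and edgeR adjusted p = 0.182.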

How the data were processed

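RNA was sequenced in 6 kidney samples, 3 DHT and 3 control, each matched to its column by its title. Trizol extraction and Illumina mRNA libraries are described per the labels' protocols. The submitters' processing notes name HISAT2 2.0 and mm10, and no counting tool, annotation or strand setting is given in the sources used here. Values in the authors' deposited table are raw, not normalized counts by gene symbol, in 46095 rows, of which 27 bear dates for names (0.142% of counts) and 20681 have no count. From these, edgeR 4.0.16 (R 4.3.3) kept 15367 genes (filterByExpr, minimum count 10, minimum total 15), scaled by TMM and fitted a robust quasi-likelihood model with the group as its only term. SE values are those the F statistic implies. The fit was tested on simulated data. Alternatives were other scalings and filters, DESeq2 1.42.0, limma-voom (limma 3.58.1), a non-robust fit, replicate as a block and leaving out each library.

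The members and lists were chosen with earlier results of these data known. Values in every library were to be given for members past the threshold or whose groups do not overlap, the inhibitors, the 3 members of highest mean CPM and the 2 of smallest p in each role, and, in each pathway list, genes past the threshold and the gene of smallest p. Cdk1, Cdk2, Ccnd2, Ccne1, Cdkn3, Hmmr and Mybl2 were added after their values were seen. Mean levels per kilobase use the union of exons in GENCODE M21 (GRCm38, the assembly of mm10). There, exons of 16 of the 46 members overlap those of another gene, 15 with an opposite-strand partner, such as Ccnd1, Cdk4, Ccne2, Ccna2 and Prc1, and without strand such reads cannot be assigned. Near-identical transcripts elsewhere (95% identity over at least 50% of the transcript) were found for Mcm7, Pcna and Ccnb1. No library was counted as a repeat of another, since chi-square per degree of freedom between libraries of a group was 24.2 to 65.1. The symbols Knl1, Sgo1 and Skp1 were matched by their older names.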

Additional observations from a re-analysis of the deposited data

How the results depend on the processing

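Over the alternatives, the median log2 fold change of the mitotic and spindle genes stayed between 0.94 and 1.32. The number of members called was 1 with no filter and 5 with DESeq2, and 0 to 1 over the fits that each left out 1 library. The number of genes called over all genes, 437, was 852 with no filter, 1616 with DESeq2 and 85 with a replicate block, and 0 to 1224 with 1 library left out. Deviations from the group mean correlated at 0.089, -0.171 and 0.063 between DHT and control samples of the same number. Between samples of different numbers the correlations were -0.169 to 0.149. With 3 libraries per group this check cannot exclude a pairing. Of the 3 further pathway genes called, 2 were called with limma-voom and with the non-robust fit, 1 with total counts and 0 with the replicate block, while 5 pathway genes were called with no filter and 6 with DESeq2, and 0 to 5 with 1 library left out. Total counts moved the median of all genes to -0.10, and the log2 fold changes of Mcm4 to -0.01 and Mcm7 to -0.03. That of Cenpa was 0.00 with median-ratio size factors and with DESeq2. With 1 library left out, log2 fold changes crossed 0 for Ccnd1 (-0.31 to 0.04), Ccnd2 (-0.24 to 0.37), Cdc6 (-1.19 to 0.17), Cdt1 (-0.06 to 0.39), Mcm3 (-0.35 to 0.53), Mcm4 (-0.28 to 0.22), Mcm5 (-0.11 to 0.33), Mcm7 (-0.03 to 0.17), Rrm1 (-0.21 to 0.14) and Cenpa (-0.54 to 0.41). The cause was not tested. Low counts limit the mitotic and spindle genes, most of which had under 100 counts in the control samples together, and several in the DHT samples too.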
